A study of Mus musculus with 19 samples.

Results

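The 128 genes described here were listed as higher at day 4 than at day 1 in differentiating P19CL6 cultures, and at none of days 7, 10 and 14. P19CL6 is a subline of mouse embryonal carcinoma cells that forms beating heart muscle in culture, and beating was noted at day 14 per the design text. Messenger RNA was measured by digital gene expression, which sequences a single short tag from each transcript molecule, so that levels of different genes compare without a correction for length. There were 4 libraries at day 4 and 3 at day 1, and 4 each at days 7, 10 and 14. The labels give 1 cell line, the day and a replicate number, and name no genotype, inducing agent or separate culture. Replicate 2 had no day 1 library, so day 4 means cover replicates 1 to 4 and day 1 means cover replicates 1, 3 and 4. The genes were taken from the authors' deposited tables as those with a higher TPM (tags scaled to the library total) at day 4, no row in the 3 later tables and an empty pathway column. Hox genes and 17 named streak, ligand and hypoxia genes were set aside. The day 4 and day 1 values and the absence from later tables thus chose the genes, and they are given as a description.

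The 4 tables held 4213 genes with a row at any day. Of these, 899 were listed as risen at day 4, which is 21.3%, and 880 as fallen, which is 20.9%. Of the risen genes, 242 had no row at a later day, 5.74% of the 4213, and 129 of these had no pathway entry. Hoxb13 was the 1 gene set aside by name, which left 128. Each table gives a mean over all libraries of a day and none of a single library, so the spread between replicates is not known and no test between days was possible. A fold below is the ratio of the scaled tag sums, day 4 over day 1, and the bracketed 95% interval (exact, from the binomial split of the tags) covers counting error only. All libraries of a day together held about 23440000 tags at day 4 and 17420000 at day 1, as inferred from the ratio of mean counts to TPM. Where day 1 held 0 tags, the fold was taken against 3 tags over its libraries, or 0.172 TPM. Such a fold has no interval and is not a lower bound. In bulk cultures, fewer cells of a type and less RNA per cell cannot be told apart. Pou5f1, the gene for Oct4 and a marker of the undifferentiated state, stood at 678 TPM at day 4 and 1489 TPM at day 1. Sox2, another such marker, stood at 22.4 TPM at day 4 and 79.3 TPM at day 1. Genes of that state did not all fall. A pluripotency list of 32 symbols had 5 risen, 6 fallen and 21 not listed at day 4.

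When pluripotent cells turn towards mesoderm they pass through a primitive streak stage, in which streak transcription factors, signalling feedback genes and adhesion genes are switched on for a short time. Cardiac and other lineage genes follow. F-box proteins select the proteins that SCF ligases mark with ubiquitin, and Hedgehog signals are received on cilia in mesoderm. Whether genes of F-box proteins, centrioles or cilia change as a class at this stage was not tested.

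For most of the 128 genes the difference between day 4 and day 1 was modest. The median fold was 2.68, and 53.9% had a log2 fold under 1.5. The 357 genes that also lacked a pathway entry, but were listed again at a later day, had a median fold of 3.60, and 33.3% were under 1.5. Absence from the later tables separates these groups, so the contrast in fold may be in part fixed by the choice of genes. The 113 genes listed at day 4 alone with a pathway entry had a median fold of 2.74. The median day 4 level was 19.1 TPM for the 128 genes, within a range of 2.22 to 816 TPM, and 22.3 TPM for the 357 genes. At day 1, 7 of the 128 genes (5.47%) had 0 tags, against 7.56% of the 357.

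The most abundant of the genes were well expressed at day 1 too. The non-coding RNA gene 1110038B12Rik stood at 816 TPM at day 4 and 309 TPM at day 1, 2.64-fold higher (2.56 to 2.72). Grsf1, which encodes an RNA-binding protein of mitochondrial RNA granules, stood at 409 TPM at day 4 and 92.7 TPM at day 1, 4.41-fold higher (4.19 to 4.66). Eif3l, for a subunit of the translation initiation factor eIF3, stood at 373 TPM at day 4 and 154 TPM at day 1, 2.42-fold higher (2.32 to 2.53). Among these, Grsf1 was the furthest above its day 1 level. Bsg, for basigin, the membrane chaperone of lactate transporters, stood at 245 TPM at day 4 and 105 TPM at day 1, 2.34-fold higher (2.22 to 2.46). D17Wsu92e, named Ilrun in RefSeq, stood at 155 TPM at day 4 and 62.9 TPM at day 1, 2.47-fold higher (2.31 to 2.64), and Igbp1, for a regulatory protein of PP2A-type phosphatases, at 133 TPM at day 4 and 49.7 TPM at day 1, 2.68-fold higher (2.49 to 2.90).

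**Figure D1:**
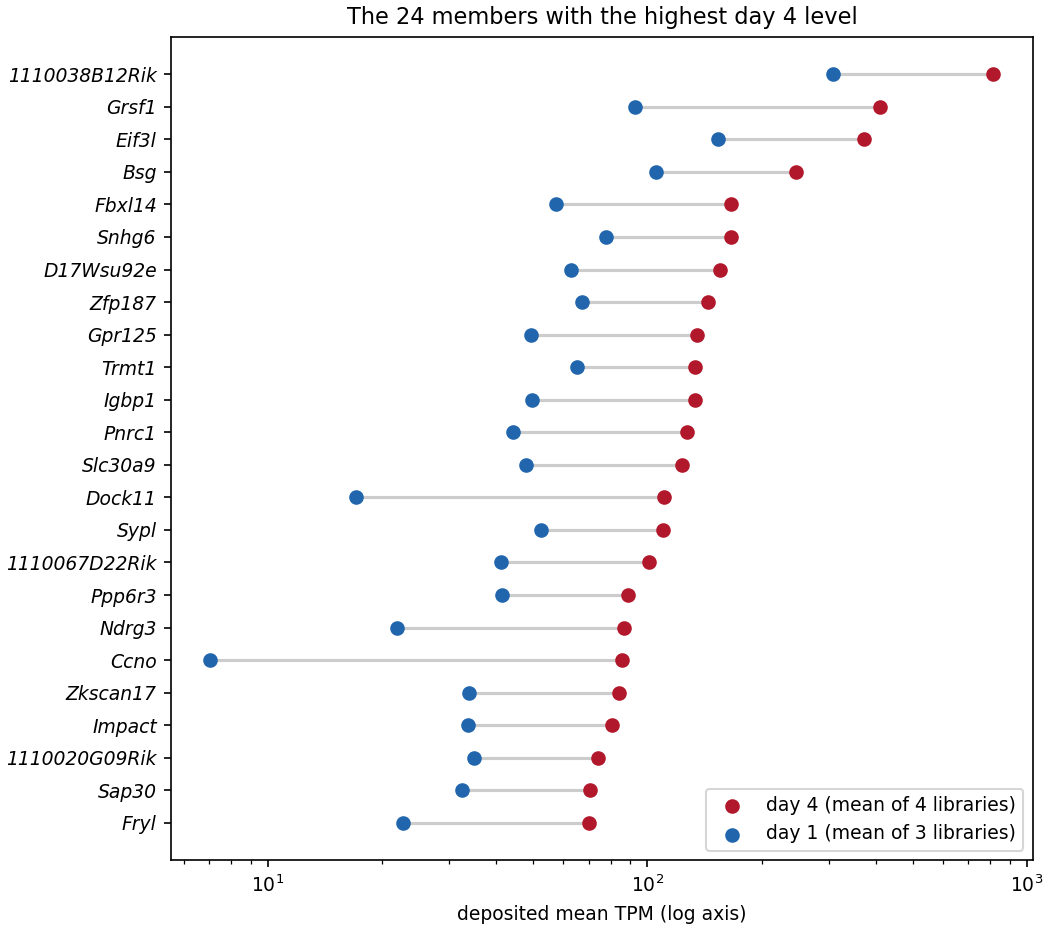
Deposited mean TPM (log axis) at day 4 (red) and day 1 (blue) for the 24 members with a symbol and the highest day 4 level, joined by grey lines, with no error bars because the tables hold means only. Ccno (85.5 TPM at day 4, 7.06 TPM at day 1) and Dock11 (110 TPM at day 4, 17.1 TPM at day 1) have the longest lines.

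How high an unlisted gene could have been at a later day can be bounded from the tables. At days 7, 10 and 14, 25.9%, 40.2% and 49.8% of the 4213 genes were listed as risen and 14.9%, 14.2% and 17.2% as fallen. In 167 cases genes of a table shared the same pair of mean counts, and in 0 of these did their deposited P values differ, although the scale of that column is not known, since some of its values exceed 1. If listing followed the 2 mean counts alone, and if a larger difference was always listed, an unlisted gene stayed below the smallest risen count among genes with at least its own day 1 count. The fallen genes give a lower bound in the same way. These limits were devised after the values had been seen. In 85 of the 128 genes the day 4 level exceeded the limits of all 3 later days, and in 65 with the fifth smallest listed count as the limit. Since the genes were chosen as listed at day 4 and unlisted later, a day 4 level near or above these limits is largely fixed by the choice. The count and the ratios given below for single genes are therefore descriptions only. Neither allows for counting error, so a ratio near 1 does not place a gene above or below its limits. In the 43 genes outside the 85 the day 4 level did not exceed the limits of all 3 later days. For these the tables do not show that day 4 was higher than every later day, and they are called genes listed at day 4 alone. The ratio of the day 4 level to the highest limit had a median of 1.10 and ran between 0.861 (Bsg) and 5.69 (Ccno).

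**Figure D2:**
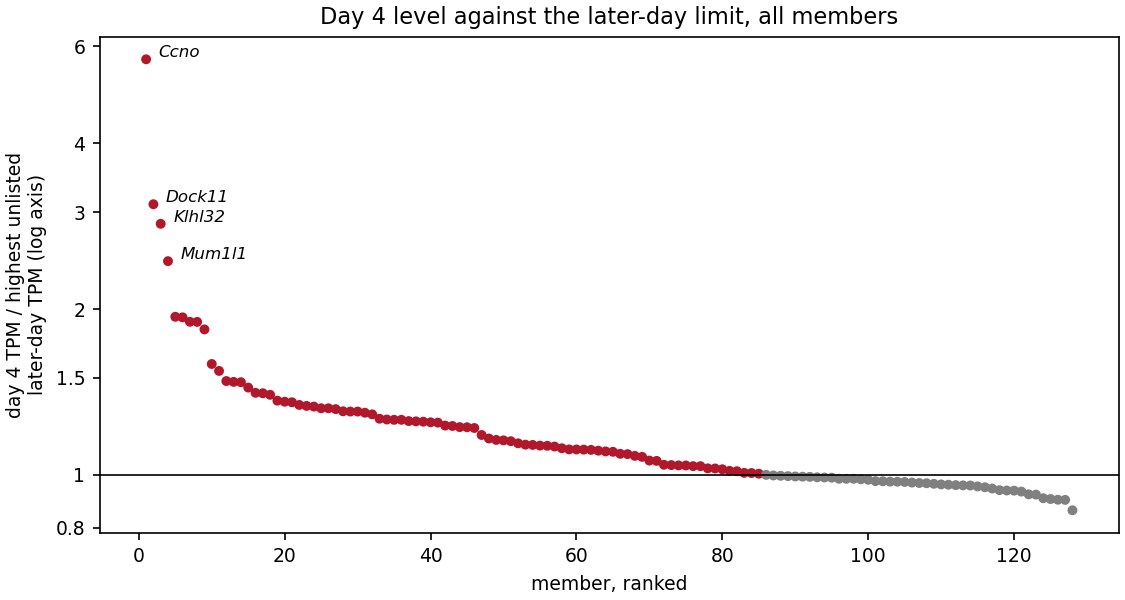
Day 4 TPM divided by the highest later-day TPM at which the gene would stay unlisted (log axis), for all 128 members in rank order. Of these, 85 lie above 1 and 43 do not, and Ccno, Dock11, Klhl32 and Mum1l1 lie above 2.

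In 11 genes the day 4 level was at least 1.5 times the highest limit. Ccno, for cyclin O, which acts in centriole multiplication in multiciliated cells, stood at 85.5 TPM at day 4 and 7.06 TPM at day 1, 12.1-fold higher (10.1 to 14.6). Its limits were 15.03 TPM at day 7, 14.7 TPM at day 10 and 14.2 TPM at day 14. Ccno thus had the widest margin of all 128 genes, 5.69 times. Dock11, for an exchange factor that activates the GTPase Cdc42, stood at 110.4 TPM at day 4 and 17.1 TPM at day 1, 6.45-fold higher (5.72 to 7.30). Its limits were 35.1 TPM at day 7, 35.6 TPM at day 10 and 34.8 TPM at day 14, a ratio of 3.10. Klhl32, of the kelch-like family, stood at 18.7 TPM at day 4 and 1.78 TPM at day 1, 10.5-fold higher (7.31 to 15.7), and its limits were 6.55 TPM at day 7, 5.94 TPM at day 10 and 5.96 TPM at day 14. Its level at day 4 was 2.86 times the highest of these. Mum1l1, named Pwwp3b in RefSeq, stood at 26.8 TPM at day 4 and 4.53 TPM at day 1, 5.91-fold higher (4.67 to 7.56), a ratio of 2.44.

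The promoter windows of Ccno and Dock11 are shown because these genes stand furthest above their limits. They are RefSeq sequences of build GRCm38.p6, written 5′ to 3′ on the strand of the gene, from 250 bases before the start to 50 after it, and hold no match, which would be in capitals, to the 5 motifs described further on.
Ccno, chr13:112987552-112987851, plus strand: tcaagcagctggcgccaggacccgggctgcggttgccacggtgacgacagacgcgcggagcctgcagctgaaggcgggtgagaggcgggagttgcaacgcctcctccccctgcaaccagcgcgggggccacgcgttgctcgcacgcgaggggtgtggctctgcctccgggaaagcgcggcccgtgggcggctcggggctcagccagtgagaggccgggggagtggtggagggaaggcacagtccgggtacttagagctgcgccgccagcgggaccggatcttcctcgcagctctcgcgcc
Dock11, chrX:35888582-35888881, plus strand: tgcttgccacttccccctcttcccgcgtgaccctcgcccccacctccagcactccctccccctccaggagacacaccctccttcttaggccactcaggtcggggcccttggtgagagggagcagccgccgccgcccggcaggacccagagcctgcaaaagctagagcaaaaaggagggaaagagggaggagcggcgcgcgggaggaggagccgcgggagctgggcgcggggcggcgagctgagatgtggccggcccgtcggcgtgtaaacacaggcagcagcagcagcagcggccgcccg

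The other 7 of the 11 genes stood at 1.54 to 1.94 times their limits. Fam63b, for a deubiquitinase named Mindy2 in RefSeq, stood at 39.6 TPM at day 4 and 9.93 TPM at day 1, 3.99-fold higher (3.39 to 4.72). A gene without a symbol that the deposited table describes as Ddx26b stood at 49.3 TPM at day 4 and 11.6 TPM at day 1, 4.25-fold higher (3.66 to 4.96). Ndrg3, of the N-myc downstream regulated family, stood at 86.6 TPM at day 4 and 21.9 TPM at day 1, 3.95-fold higher (3.54 to 4.42). These 3 had clear day 1 levels, unlike the next pair. Rhbg, for an ammonium transporter of the Rhesus family, had 99 tags at day 4 and 0 tags at day 1, 24.5-fold higher against 3 tags. Scn2b, for a beta subunit of voltage-gated sodium channels, stood at 7.46 TPM at day 4 and 0.63 TPM at day 1, 11.8-fold higher (6.45 to 24.1). Grsf1 had a ratio of 1.59 and Stc1 of 1.54, and with the fifth smallest listed count as the limit these were 1.30 for Grsf1 and 1.46 for Stc1.

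**Figure D3:**
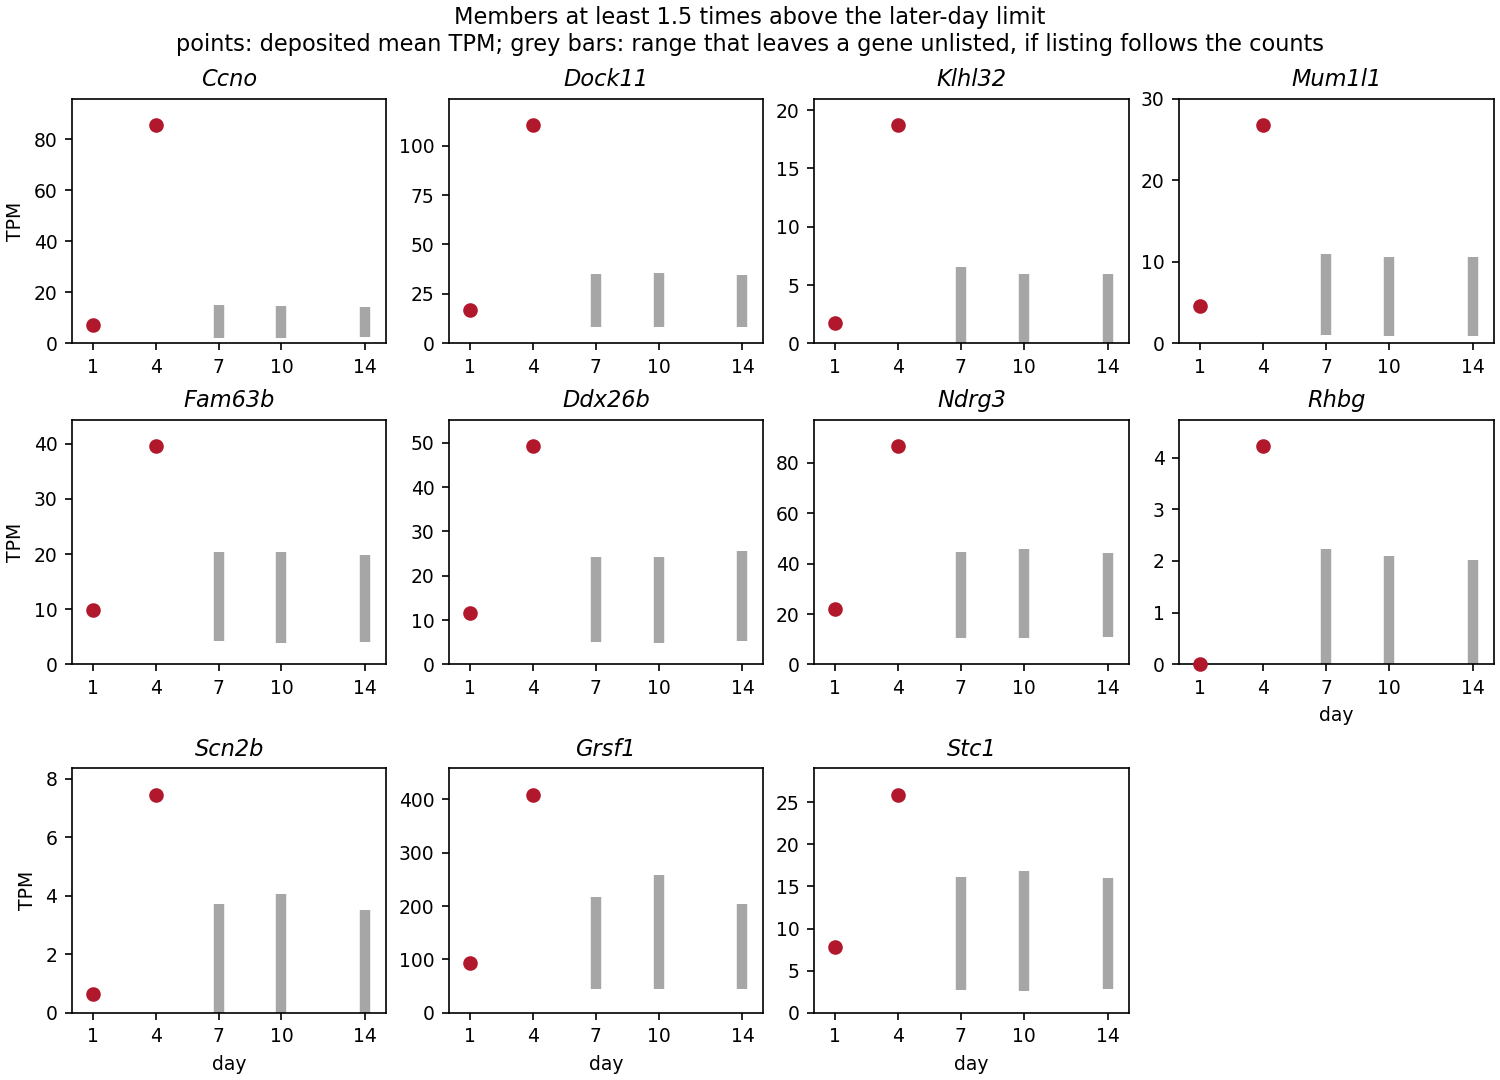
TPM against day for the 11 members at least 1.5 times above their later-day limit. Red points are deposited means at days 1 and 4, and grey bars at days 7, 10 and 14 span the levels that would leave the gene unlisted, all of which lie below the day 4 point.

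The genes were also grouped by known role, after their values had been seen, and 49 of the 128 were placed in no group. Transcription factors and chromatin proteins made up 22 genes with a median fold of 2.37. Several regulators were barely detected on either day. Lhx1, a homeobox gene of the streak and the head organiser, had 69 tags at day 4 and 0 at day 1, 17.1-fold higher against 3 tags. Klf5, of the pluripotency network, stood at 2.82 TPM at day 4 and 0.12 TPM at day 1, 24.5-fold higher (6.53 to 207), with 2 tags at day 1. Lmo1, for a LIM-only cofactor, stood at 5.72 TPM at day 4 and 0.69 TPM at day 1, 8.30-fold higher (4.60 to 16.5). All 3 exceeded their limits, with ratios of 1.32 for Lhx1, 1.22 for Klf5 and 1.36 for Lmo1. These ratios do not allow for counting error, and the limit of Lhx1 was the smallest risen count listed at a later day. Ascl2, for a bHLH factor of the trophoblast, stood at 5.67 TPM at day 4 and 1.49 TPM at day 1, 3.80-fold higher (2.48 to 6.03). Hes6, for a bHLH protein that opposes Hes1, stood at 50.1 TPM at day 4 and 24.3 TPM at day 1, 2.06-fold higher (1.84 to 2.30). Ascl2 and Hes6 did not exceed their limits, with ratios of 0.991 and 0.970.

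The abundant genes of this group had smaller folds. Zfp187, a zinc finger gene named Zscan26 in RefSeq, stood at 144 TPM at day 4 and 67.1 TPM at day 1, 2.15-fold higher (2.01 to 2.30). Pnrc1, for a nuclear receptor coactivator, stood at 127 TPM at day 4 and 44.2 TPM at day 1, 2.88-fold higher (2.66 to 3.12). Sap30, for a subunit of the Sin3 histone deacetylase complex, stood at 70.7 TPM at day 4 and 32.5 TPM at day 1, 2.17-fold higher (1.97 to 2.39). Of these 3, Pnrc1 alone exceeded its later limits, with a ratio of 1.29. Kdm5a, for a demethylase of histone H3, stood at 68.5 TPM at day 4 and 25.9 TPM at day 1, 2.65-fold higher (2.38 to 2.95), and Rfx3, for a factor that drives cilium genes, at 37.7 TPM at day 4 and 16.1 TPM at day 1, 2.34-fold higher (2.05 to 2.69). Both exceeded their limits, with ratios of 1.25 for Kdm5a and 1.13 for Rfx3.

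Ubiquitin ligases, adaptors and deubiquitinases made up 10 genes with a median fold of 2.83. The F-box genes are described singly, since without a spread between replicates a difference among them is not shown. Fbxl14, known for targeting Snail for degradation, stood at 166 TPM at day 4 and 57.4 TPM at day 1, 2.90-fold higher (2.70 to 3.11). Fbxl17 stood at 52.4 TPM at day 4 and 17.2 TPM at day 1, 3.05-fold higher (2.69 to 3.48). Both exceeded their limits, with ratios of 1.36 for Fbxl14 and 1.47 for Fbxl17. With the fifth smallest listed count as the limit these were 1.06 for Fbxl14 and 1.34 for Fbxl17. Fbxl14 overlaps Wnt5b, also listed as risen at day 4, and the tags of the pair cannot be told apart. Fbxl20 stood at 38.9 TPM at day 4 and 19.2 TPM at day 1, 2.03-fold higher (1.79 to 2.30), and Fbxw4 at 21.6 TPM at day 4 and 10.7 TPM at day 1, 2.02-fold higher (1.71 to 2.40). These lay at the edge of the authors' filter and had ratios of 0.957 and 0.956. Hace1, for a HECT-type ligase, stood at 19.2 TPM at day 4 and 6.95 TPM at day 1, 2.76-fold higher (2.26 to 3.41). The TRIM family was represented by Trim36, Trim67 and 9230105E10Rik, named Trim12c in RefSeq. The last stood at 11.7 TPM at day 4 and 5.05 TPM at day 1, 2.31-fold higher (1.81 to 2.98). Trim36 stood at 7.63 TPM at day 4 and 2.64 TPM at day 1, 2.89-fold higher (2.08 to 4.09). Trim67 had 68 tags at day 4 and 0 tags at day 1, 16.8-fold higher against 3 tags.

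Centriole, cilium and microtubule genes numbered 6, with a median fold of 3.22. Besides Ccno they included both tau tubulin kinase genes. Ttbk2, whose product starts the assembly of the primary cilium, stood at 7.42 TPM at day 4 and 1.95 TPM at day 1, 3.80-fold higher (2.62 to 5.67). Ttbk1 stood at 9.17 TPM at day 4 and 3.62 TPM at day 1, 2.54-fold higher (1.91 to 3.41). The intervals of the 2 folds overlap, and the ratio to the limit was 1.13 for Ttbk2 and 0.973 for Ttbk1. Ttc23, for a protein of the cilium base, stood at 21.6 TPM at day 4 and 8.21 TPM at day 1, 2.63-fold higher (2.18 to 3.19), and Odf2l at 18.8 TPM at day 4 and 7.12 TPM at day 1, 2.64-fold higher (2.16 to 3.25). Both exceeded their limits.

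**Figure D4:**
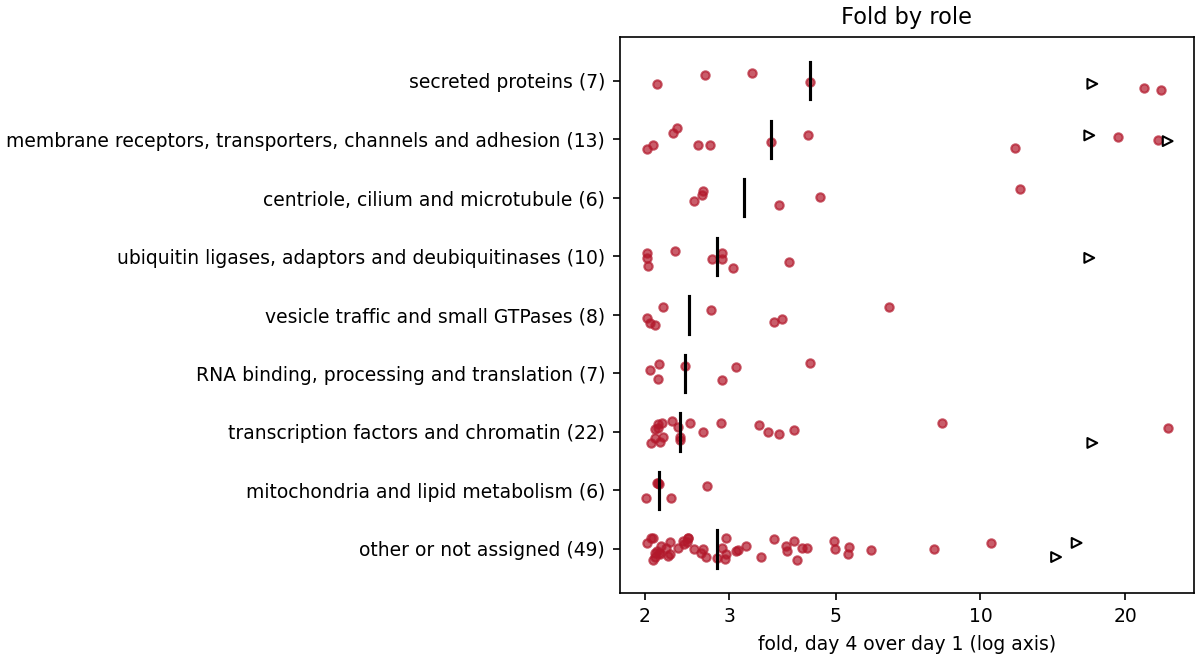
Fold of day 4 over day 1 (log axis) for all 128 members by role, with the number of genes in brackets and a black bar at each median. Medians lie between 2.14 (mitochondria and lipid metabolism, median day 4 level 40.2 TPM) and 4.42 (secreted proteins, 8.87 TPM). Open triangles are the 7 genes with 0 tags at day 1, drawn at their fold against 3 tags. The higher mean count of every listed gene was at least 13, so genes with very few day 1 tags enter only at large folds. A tie of fold to role was not tested.

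Secreted proteins made up 7 genes with a median fold of 4.42. Both stanniocalcin genes, for secreted glycoprotein hormones known from calcium regulation in fish, were among them. Stc1 stood at 25.9 TPM at day 4 and 7.75 TPM at day 1, 3.34-fold higher (2.77 to 4.06), and Stc2 at 20.4 TPM at day 4 and 7.63 TPM at day 1, 2.67-fold higher (2.20 to 3.26). The intervals of the 2 folds overlap. Prss22, for a serine protease, had 69 tags at day 4 and 0 tags at day 1, 17.1-fold higher against 3 tags. Fbln7, for a matrix protein of the fibulin family, stood at 2.73 TPM at day 4 and 0.12 TPM at day 1, 23.8-fold higher (6.32 to 201), and Nrn1, for neuritin, at 2.52 TPM at day 4 and 0.12 TPM at day 1, 21.9-fold higher (5.81 to 185). Fbln7 and Nrn1 had 2 tags each at day 1, which makes their intervals wide.

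Membrane proteins made up 13 genes with a median fold of 3.67. Gpr125, an adhesion receptor gene named Adgra3 in RefSeq, stood at 135 TPM at day 4 and 49.2 TPM at day 1, 2.74-fold higher (2.54 to 2.96). Slc30a9, of the zinc transporter family, stood at 123 TPM at day 4 and 47.8 TPM at day 1, 2.58-fold higher (2.39 to 2.79). At the low end were the cadherin gene Cdh20 and the adhesion gene Dscam. Cdh20 had 68 tags at day 4 and 0 tags at day 1, 16.8-fold higher against 3 tags. Dscam stood at 2.69 TPM at day 4 and 0.12 TPM at day 1, 23.4-fold higher (6.22 to 198). Mrgpra4, a receptor gene of sensory neurons, had the lowest day 4 tag sum of all members, 52, and stood at 2.22 TPM at day 4 and 0.12 TPM at day 1, 19.3-fold higher (5.09 to 164). Vesicle traffic and small GTPase genes numbered 8 with a median fold of 2.47. Apart from Dock11 they included Sypl, for a synaptophysin-like vesicle protein, at 109.9 TPM at day 4 and 52.3 TPM at day 1, 2.10-fold higher (1.95 to 2.27).

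RNA binding, processing and translation genes numbered 7, with a median day 4 level of 134 TPM and a median fold of 2.42. The snoRNA host genes Snhg6 and Snhg8 had like folds. Snhg6 stood at 166 TPM at day 4 and 77.6 TPM at day 1, 2.15-fold higher (2.02 to 2.28), and Snhg8 at 62.6 TPM at day 4 and 29.3 TPM at day 1, 2.14-fold higher (1.93 to 2.37). Trmt1, for a tRNA methyltransferase, stood at 134 TPM at day 4 and 65.3 TPM at day 1, 2.05-fold higher (1.91 to 2.19), and Imp3, for a protein of ribosomal RNA processing, at 46.3 TPM at day 4 and 14.98 TPM at day 1, 3.09-fold higher (2.70 to 3.55). Mitochondrial and lipid genes numbered 6 with a median fold of 2.14. Timm50, of the mitochondrial protein import machinery, stood at 47.6 TPM at day 4 and 22.2 TPM at day 1, 2.15-fold higher (1.91 to 2.42). Among the genes placed in no group, Fryl stood at 70.3 TPM at day 4 and 22.7 TPM at day 1, 3.10-fold higher (2.77 to 3.47). Ankrd33b stood at 8.57 TPM at day 4 and 2.07 TPM at day 1, 4.15-fold higher (2.90 to 6.09). Ankrd55 had 58 tags at day 4 and 0 tags at day 1, 14.4-fold higher against 3 tags.

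The border of the set was not a gap. The smallest deposited log2 ratio among the 128 genes was 1.01, in the authors' deposited table, for Elovl4, Fbxw4, Mfsd1 and Tnpo2. Just outside were 85 genes without a pathway entry that were risen at day 4 and listed at exactly 1 later day, 84 as risen and 1 as fallen. The fallen one was Ankrd37, a hypoxia-induced gene, with 27.0 TPM at day 4 and 13.32 TPM at day 1, and 6.34 TPM at day 7. The nearest risen one was Slc4a7, a bicarbonate transporter gene, with 14.6 TPM at day 4 and 7.06 TPM at day 1, and it was listed at day 14 with 14.2 TPM and a log2 ratio of 1.01 in the authors' deposited table.

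Few of the 128 genes stood on lists of pathways known for this stage, which the choice of genes without a pathway entry in part fixes. Of 24 lists of pathway genes and cell type markers, 16 held none of them, and 9 genes stood on any list, 7.03%, against 13.4% of the other 771 genes risen at day 4. The hypoxia list held 3 of them, Sap30, Stc1 and Stc2. Of its 62 symbols, 24 were risen at day 4, 0 were fallen and 38 were not listed. The median fold among the risen was 3.31, against 3.32 for all 899 genes risen at day 4. Over all 4213 genes with a row at any day, 21.3% were risen and 20.9% fallen at day 4. On the hypoxia list, 30 of the 62 symbols had such a row. Pfkl, Gbe1 and Aldoc of that list were also listed at day 4 alone, with pathway entries. Pfkl, for liver phosphofructokinase, stood at 203 TPM at day 4 and 70.8 TPM at day 1, 2.87-fold higher (2.69 to 3.05). The FGF and ERK feedback list held Ier3, an immediate early gene, which stood at 12.4 TPM at day 4 and 4.36 TPM at day 1, 2.84-fold higher (2.20 to 3.70). Of its 24 symbols, 16 had a row at any day, 8 were risen and 3 fallen. Spred2 and Spry4 were also at day 4 alone, which with Ier3 makes 3 of the 8 risen.

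On the list of the primitive streak and early mesoderm, Lhx1 was 1 of 20 risen genes of 32 symbols, with 0 fallen. The median fold of the risen was 20.3. Of the 32 symbols, 26 had a row at any day, and over all 4213 such genes 21.3% were risen and 20.9% fallen. On the presomitic and paraxial mesoderm list, 14 of 34 symbols were risen and 0 fallen, with a median fold of 24.8. Of these 34 symbols, 20 had a row at any day, and 0 were risen at day 4 alone. The Notch list held Hes6, with 7 risen and 2 fallen of 26, and the pluripotency list held Klf5, with 5 risen and 6 fallen of 32. The amino acid and unfolded protein stress list held Stc2, with 2 risen and 8 fallen of 31. A row at any day was held by 15 Notch, 15 pluripotency and 16 stress symbols. None of the 128 genes stood on the lists of the Wnt pathway (10 risen, 4 fallen), the BMP pathway (9 risen, 1 fallen), the Nodal pathway (4 risen, 1 fallen), retinoic acid (4 risen, 0 fallen) and epithelial to mesenchymal transition (6 risen, 0 fallen). The same held for p53 targets and cholesterol synthesis, each with 0 risen and 6 fallen, and the cell cycle, with 1 risen and 12 fallen. Symbols with a row at any day numbered 20 for Wnt, 19 for BMP, 13 for Nodal, 11 for retinoic acid and 15 for the transition list. They numbered 10 for p53 targets, 11 for cholesterol synthesis and 19 for the cell cycle.

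Among the lists of cell type markers, those of trophoblast and muscle each held 1 of the 128 genes. Ascl2 stood on the trophoblast list, with 8 risen and 0 fallen of 23 symbols. Of these 23, 11 had a row at any day, and over all 4213 such genes 21.3% were risen and 20.9% fallen. Tnnt1, for slow skeletal troponin T, stood on the smooth and skeletal muscle list, with 2 risen and 2 fallen of 19, 7 with a row. It stood at 13.99 TPM at day 4 and 4.82 TPM at day 1, 2.90-fold higher (2.28 to 3.73). The cardiac list had 2 risen and 0 fallen genes of 29, and the endothelial and blood list 1 risen of 30. The endoderm list had 1 risen of 25, the germ cell list 1 risen of 20 and the neural list 0 risen and 7 fallen of 26. Rows at any day were held by 18 cardiac, 16 endothelial and blood, 10 endoderm, 1 germ cell and 15 neural symbols. Ribosomal protein genes had 4 risen of 36, 4 with a row, and histone genes 2 of 26, 5 with a row. Of the 4 risen ribosomal protein genes, 3 (Rplp0, Rps10 and Rpl7) were at day 4 alone, with pathway entries. The part of these marker genes in the members' values was not tested.

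The root term biological_process, which names no process, stood at 66 of the 124 genes with any gene ontology term, 53.2%, against 44.0% of 327 genes without a pathway entry that were listed again later and 29.2% of 727 other genes risen at day 4 with a term. By gene ID, 124 of the 128 matched RefSeq, of which 116 were protein-coding, 7 were long non-coding RNA genes and 1 was a transcribed pseudogene. Long non-coding genes made up 5.65% of them, against 4.19% of the genes listed again later without a pathway entry. A newer symbol was found for 20, and 24 deposited symbols were provisional or blank.

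Neighbours were not used to choose the genes. In the order of protein-coding genes in RefSeq, 9 of 116 of them (7.76%, exact 95% interval 3.61% to 14.2%) stood next to a gene listed as risen at day 4, against 7.30% of all 21900 protein-coding genes. The share was 19.2% of 312 genes without a pathway entry listed again later, and 14.6% of 294 with Hox clusters left out. The 128 genes thus had risen neighbours at about the background share. Kcns3, a potassium channel subunit gene, stood at 6.95 TPM at day 4 and 1.89 TPM at day 1, 3.67-fold higher (2.51 to 5.51). It neighbours Msgn1, a regulator of presomitic mesoderm, which had 316 tags at day 4 and 0 tags at day 1, 78.3-fold higher against 3 tags. Timm50 neighbours Dll3, a Notch ligand gene, at 98.0 TPM at day 4 and 3.04 TPM at day 1, 32.2-fold higher (24.5 to 43.1). Fbxw4 neighbours Fgf8, a ligand gene of the streak, at 57.9 TPM at day 4 and 22.5 TPM at day 1, 2.57-fold higher (2.30 to 2.89). Tnnt1 neighbours Tnni3, for cardiac troponin I, at 19.5 TPM at day 4 and 1.49 TPM at day 1, 13.03-fold higher (8.78 to 20.2). Fbxl14 neighbours and overlaps Wnt5b, a Wnt ligand gene, at 129.8 TPM at day 4 and 15.3 TPM at day 1, 8.50-fold higher (7.497 to 9.67). The other neighbours were Cd47 (Bbx), Efna5 (Fbxl17), Adam10 (Fam63b) and Dap (Ankrd33b).

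Of the 124 genes matched to RefSeq, 39 overlap another gene, and 3 overlap one that was also listed as risen at day 4. These are Fbxl14 with Wnt5b, and Snhg6 and 6030422M02Rik with each other. How tags were assigned to strands is not stated, so the tags of these pairs cannot be told apart. How tags that match several genes were counted is not stated either, and whether this touches Cxx1c or the zinc finger genes Zfp560 and Zfp429, which belong to families of similar genes, was not tested.

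Promoter windows were found for 94 of the 128 genes, 112 windows in all, and were searched on both strands for 5 motifs. These were the core of the hypoxia response element (ACGTG), which can be part of an E-box. They were also a binding site of T-box factors (TCACACC) and a site of the TCF/LEF factors that carry Wnt signals (CTTTGAT). The last were the TATA box (TATAAA) and the CCAAT box, with the letters of its name. The windows of Sap30 and Stc2 are shown as members of the hypoxia list, with matches in capitals.
Sap30, chr8:57487811-57488110, minus strand: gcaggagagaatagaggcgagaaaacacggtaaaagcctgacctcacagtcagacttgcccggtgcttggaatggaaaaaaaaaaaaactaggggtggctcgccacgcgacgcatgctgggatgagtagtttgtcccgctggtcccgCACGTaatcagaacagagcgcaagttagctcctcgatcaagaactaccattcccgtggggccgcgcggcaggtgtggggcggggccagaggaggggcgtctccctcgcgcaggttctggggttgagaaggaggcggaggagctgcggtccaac
Stc2, chr11:31370012-31370311, minus strand: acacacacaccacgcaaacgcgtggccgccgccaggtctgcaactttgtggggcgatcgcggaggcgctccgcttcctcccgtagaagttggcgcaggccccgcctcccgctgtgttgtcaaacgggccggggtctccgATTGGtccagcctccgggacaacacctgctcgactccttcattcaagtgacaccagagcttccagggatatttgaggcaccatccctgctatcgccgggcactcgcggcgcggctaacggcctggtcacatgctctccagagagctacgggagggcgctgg

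The Sap30 window holds 1 match to the hypoxia core and the Stc2 window holds 1 CCAAT box, each on the opposite strand. The hypoxia core was found in 29 of the 94 genes, 30.9% (exact 95% interval 21.7% to 41.2%), against 31.3% of 256 genes without a pathway entry listed again later. The share was 30.0% of 3172 genes listed at any day and 21.8% of all 27025 genes with a window. Median GC content was 61.2% in the windows of the 94 genes, 61.7% for genes listed at any day and 52.7% for all genes. The T-box and TCF/LEF sites were each found in 2 of the 94 genes, 2.13% (0.259% to 7.48%), against 4.10% and 3.00% of genes listed at any day and 4.60% and 4.29% of all genes. The TATA box was found in 9.57% of the 94 genes, 10.03% of genes listed at any day and 15.7% of all genes. The CCAAT box was found in 46.8% of the 94 genes, 42.9% of genes listed at any day and 41.1% of all genes. For all 5 motifs the share among genes listed at any day lay inside the interval of the 94 genes.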

How the data were processed

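Tag libraries came from Illumina's DGE kit (protocol 2.1B), per the labels' protocols, and the build is mm9, per the submitters' processing notes. Which aligner and which test were run is not stated in the sources used here. The authors deposited a mean tag count and a TPM value per gene and day, and a log2 ratio of each later day to day 1, in tables that are filtered by FDR per the design text. The deposited P and FDR columns exceed 1 for many genes (FDR for 56.5% at day 4), so they were treated as scores of unknown scale and served no test. Equality of P values between genes was the only use made of them. A deposited TPM of 0.01 marks 0 tags and was read as 0. Mean counts times the number of libraries were whole within 0.05 tags for 100% of genes and gave the tag sums. Nothing says that libraries of a day came from separate cultures.

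Named genes were those with the 15 highest day 4 levels, those with the 15 largest folds among members at or above the members' median day 4 level (19.1 TPM), those on a list, with 0 tags at day 1 or nearest the filter, and those that share a symbol stem. Bbx, Kcns3 and Timm50, which stand next to a risen gene, were named after their values were seen. So were Kdm5a, Rfx3, Klhl32, Scn2b, Lmo1, Ttc23, Odf2l, Cxx1c, 6030422M02Rik and 9230105E10Rik. The genes and lists were chosen with earlier results of these data known. Fold intervals were tried on simulated data with counting error only. The limits were tried on simulated data listed by the rule they assume. That trial cannot show whether the authors' listing followed this rule. Software was Python 3.11.15 with pandas 2.3.3, scipy 1.17.1, numpy 2.4.6 and, for figures, matplotlib 3.10.9.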

Additional observations from a re-analysis of the deposited data

How the results depend on the processing

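The set of 128 genes became 145 with absence judged by symbol, where every row with a blank symbol was taken as absent later. It became 129 with named exceptions kept, 127 without blank symbols and 239 with pathway entries allowed. It was 51 when genes under the day 4 table's median abundance (18.1 TPM) were dropped, and 32 at a log2 ratio of at least 2. The median log2 fold of 1.42 became 1.31 on log2(TPM + 1), 1.42 as deposited, 1.40 for genes with a tag at day 1 and 1.23 for the more abundant genes. The 85 genes above their later limits became 65 with the fifth smallest listed count as the limit, and 11 when an excess of 1.5 times was asked for, both chosen after seeing the data. Of 60 named genes, the log2 fold of 48 on log2(TPM + 1) and 53 as deposited was counted as unchanged. The 7 that moved as deposited had 0 tags at day 1 and so no counting interval. The 12 that moved on log2(TPM + 1) were these and genes with 2 tags at day 1. Matching synonyms changed no list's count of members. On the given strand alone, the TCF/LEF share became 0%, against 2.24% of all genes with a window, and the CCAAT share 28.7%, against 23.7% of all. The first window of each gene alone, chosen after seeing the data, gave 24.5% for the hypoxia core, against 19.7% of all. No paired analysis was possible because the columns carry no replicate number, and leaving out a replicate could not be run for the same reason. Genes with few tags at day 1 have the widest intervals.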
